A study of Mus musculus with 66 samples.

Results

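Squamous neo-epithelium, a stratified tissue that the labels list as a section of its own after colitis, was compared with the rectum dissected from the same mouse. The samples were chosen by section and day. They comprised 18 of the 66 samples in the series: 9 neo-epithelium sections and 9 rectum sections from 9 mice, 3 mice at each of days 9, 14 and 20. The mice carry the numbers 11 to 13 (day 9), 14 to 16 (day 14) and 17 to 19 (day 20) in the labels. All were wildtype C57Bl/6 mice bought at 6 weeks of age, and the protocol gave them 3% dextran sulfate sodium (DSS), a polymer that injures the colonic lining, for 6 days from day 0. Both sections of each pair therefore came from an injured animal, and rectum and anus of 4 uninjured mice (day 0) are given below only as background levels. The muscle layer was removed before RNA isolation, so each section was a whole mucosal piece with its epithelium, stroma and immune cells. Values are TPM, a length-adjusted relative abundance with the same total in every library, summed over the transcripts of each gene. In such bulk samples, fewer cells of a type and less RNA per cell cannot be told apart.

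A squamous epithelium is built in layers. Basal cells sit on the basement membrane and carry the keratins Krt5 and Krt14 and the transcription factor p63 (gene Trp63), while cells moving upwards switch to suprabasal keratins and then to the cross-linked proteins of the cornified envelope. The colonic lining is instead one layer of columnar cells, made up of absorptive colonocytes, mucus-secreting goblet cells and hormone-secreting enteroendocrine cells, whose identity depends on factors such as Cdx2 and Hnf4a. Both kinds of lining meet at the anorectal border in a transition zone marked by Krt7.

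Trp63 is shown first because its transcripts tell its isoforms apart. It lies on chromosome 16 (GRCm38, GENCODE M21), with an upstream start whose protein carries an additional amino-terminal activation domain (TAp63) and an internal start that gives the shorter ΔNp63 typical of basal squamous cells. The start codons lie at 25684290 for transcript Trp63-208, whose coding sequence has 2043 bases, and at 25802060 for Trp63-201, with 1761 bases. The final 1720 coding bases are the same in both. The first 60 coding bases of each follow, with the start codon in capitals.
Trp63-208: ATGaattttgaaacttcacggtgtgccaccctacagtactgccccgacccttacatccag
Trp63-201: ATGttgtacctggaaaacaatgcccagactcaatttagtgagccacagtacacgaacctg
The 4 annotated transcripts with the internal start held 93.5% to 96.1% of the Trp63 TPM of the 9 neo-epithelium sections (median 94.9%). They summed to 30.7 ± 9.95 TPM (SD, n = 9), against 1.68 ± 0.717 TPM for the 4 transcripts with the upstream start. Most of the upstream sum was Trp63-202, at 1.63 TPM on average. Of the transcripts printed above, Trp63-208 was at 0.0168 TPM and Trp63-201 at 15.9 TPM. Reads of the long shared part are divided between transcripts by the authors' quantifier, so the split rests mainly on the reads that cover the separate first exons.

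Promoters are shown for a pair of genes from the 15 largest rises in neo-epithelium and a pair from the 15 largest falls. The same sign in all 9 mice was a condition for both sets. Each runs from 250 bases before to 50 after the start (RefSeq, GRCm38.p6), and capitals mark letters that match a searched motif. Krt13, the keratin of internal squamous linings, lies at chr11:100121517-100121816, minus strand. Krtdap, a secreted protein of differentiating keratinocytes, lies at chr7:30787655-30787954, plus strand. Muc2, the gel-forming mucin of goblet cells, lies at chr7:141690090-141690389, plus strand. Aqp8, a water channel of surface colonocytes, lies at chr7:123462044-123462343, plus strand.
Krt13: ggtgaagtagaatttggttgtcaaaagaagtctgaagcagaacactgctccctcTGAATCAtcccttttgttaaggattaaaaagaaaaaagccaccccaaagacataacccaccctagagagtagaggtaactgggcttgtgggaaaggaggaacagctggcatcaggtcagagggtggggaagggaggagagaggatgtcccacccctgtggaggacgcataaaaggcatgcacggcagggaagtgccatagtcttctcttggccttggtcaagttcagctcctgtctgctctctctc
Krtdap: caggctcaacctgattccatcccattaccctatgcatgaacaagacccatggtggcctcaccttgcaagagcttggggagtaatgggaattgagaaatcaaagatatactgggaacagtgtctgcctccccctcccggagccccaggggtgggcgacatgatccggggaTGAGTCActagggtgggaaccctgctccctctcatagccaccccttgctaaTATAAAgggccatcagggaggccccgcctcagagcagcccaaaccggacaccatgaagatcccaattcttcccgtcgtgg
Muc2: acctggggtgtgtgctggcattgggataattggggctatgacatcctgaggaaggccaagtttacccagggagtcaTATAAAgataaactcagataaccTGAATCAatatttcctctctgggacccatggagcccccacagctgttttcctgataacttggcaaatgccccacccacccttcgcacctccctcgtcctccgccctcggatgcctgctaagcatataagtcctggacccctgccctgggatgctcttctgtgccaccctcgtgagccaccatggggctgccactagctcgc
Aqp8: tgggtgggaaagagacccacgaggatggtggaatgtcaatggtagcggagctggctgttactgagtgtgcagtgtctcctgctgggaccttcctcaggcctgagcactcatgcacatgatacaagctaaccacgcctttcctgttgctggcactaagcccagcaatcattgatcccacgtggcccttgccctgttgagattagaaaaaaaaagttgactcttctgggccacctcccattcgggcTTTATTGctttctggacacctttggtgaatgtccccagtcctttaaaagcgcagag
The motifs were searched on both strands in the promoters of the 15 named genes with the largest rise and of the 15 with the largest fall; 9 of the former and 9 of the latter were in the promoter table. The AP-1 letters TGANTCA were in 3 of the 9 promoters that go with a rise and 2 of the 9 that go with a fall, against 7.81% of all 32851 promoters of the same length. The TATA letters TATAAA were in 3 and 2 (13.6% of all), and the CDX letters TTTATNG in 2 and 1 (10.9%). The GRHL letters AACCGGTT (0.146%) and the HNF4 letters CAAAGTCC (1.42%) were in none of the 18. No letters of one motif lie inside another among those marked in the 4 sequences shown. In the promoter of Dapl1, which is not shown, the CDX match covers the TATA match, so the same letters count for both. A match is a description of the letters only, and so is the lack of one.

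The sections matched their labels, but neither was free of transcripts typical of the other lining. The 9 suprabasal and wound keratins of a marker list summed to 8956 to 21691 TPM in neo-epithelium and to 10.00 to 546 TPM in rectum. The rectum of mice 14 (16.8 TPM) and 19 (10.00 TPM) held the least, and that of mice 15 (546 TPM) and 16 (437 TPM) the most. In rectum of uninjured mice the same sum ran from 11.2 to 109.8 TPM. The 24 absorptive colonocyte genes summed in neo-epithelium to 1909, 393 and 618 TPM in the mice of day 9, to 30326, 3680 and 7740 TPM at day 14 and to 25327, 13772 and 30717 TPM at day 20. Their rectum held 22309 to 59292 TPM. Neo-epithelium of mice 14, 17 and 19 thus reached 51.2%, 52.0% and 60.4% of the rectal colonocyte sum of the same animal. Mouse 12 reached 1.70%. Counts below are repeated without mice 14, 17 and 19 where that matters. That setting keeps all 3 mice of day 9, mice 15 and 16 of day 14 and only mouse 18 of day 20. Its shifts therefore cannot be told apart from those of a set weighted towards day 9. The part of these colonic transcripts in the differences below was not tested. Per sample, 12080 to 13266 genes reached 1 TPM. Transcripts of mitochondrial DNA took 7.35% to 17.2% of the TPM in neo-epithelium and 8.05% to 20.6% in rectum. Read depth is unknown, since the values are relative abundances without counts.

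**Figure D1:**
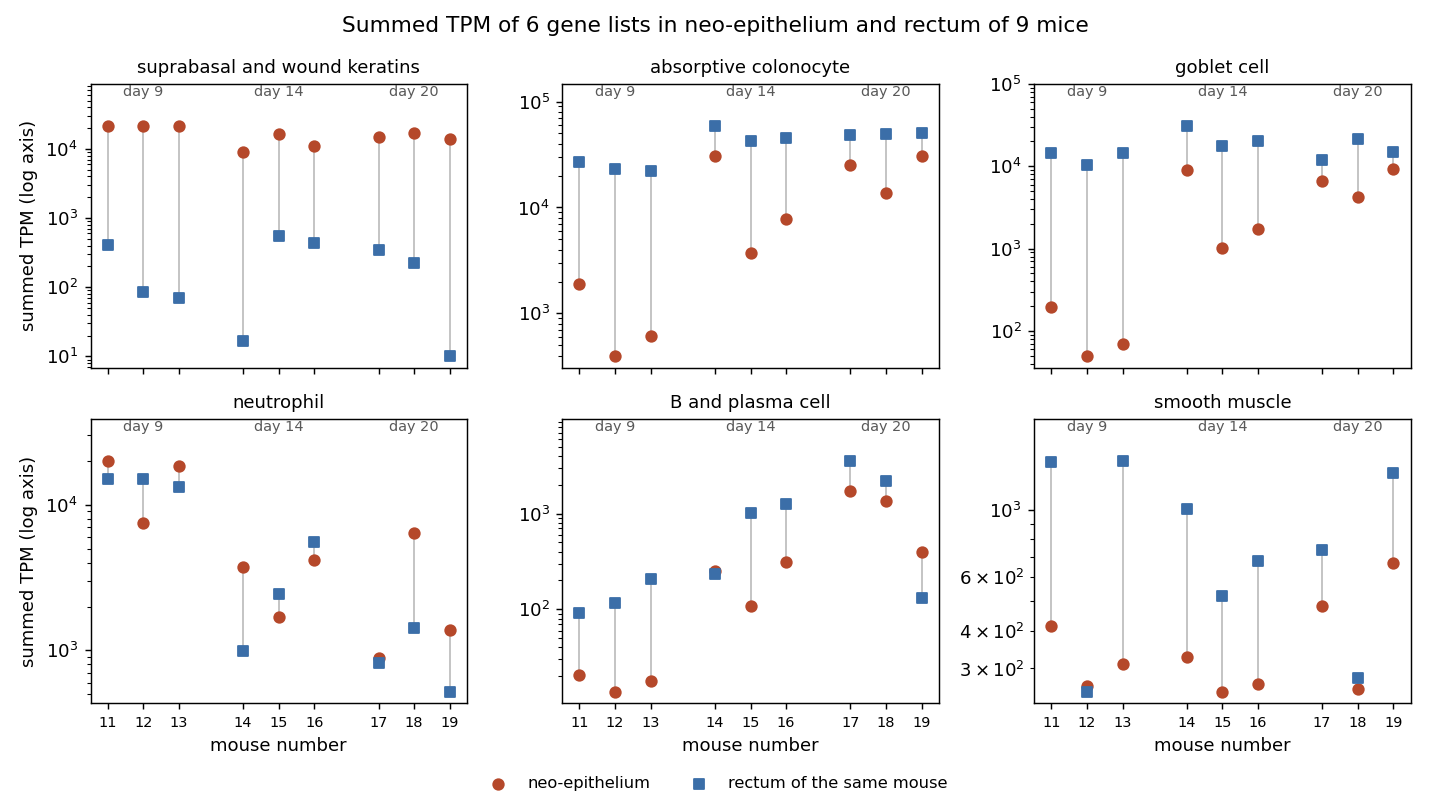
Summed TPM (log axis) of 6 gene lists in each mouse (x axis, mouse number, by day), with neo-epithelium as circles and rectum as squares joined by a line. Suprabasal keratins were higher in neo-epithelium in all 9 mice, while the colonocyte and goblet cell sums of neo-epithelium were lowest in the 3 mice of day 9 (colonocyte 393 to 1909 TPM) and highest in mice 14, 17 and 19 (25327 to 30717 TPM).

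Neo-epithelium differed from rectum in a large share of the transcriptome. Of 13024 genes tested with the mouse as a block (limma on log2(TPM + 1), Benjamini-Hochberg adjusted p under 0.05), 5885 were called, which is 45.2% of those tested. Of them 2842 (21.8%) were higher and 3043 (23.4%) lower in neo-epithelium. The median difference over all tested genes was 0.00 on the log2 scale. Without mice 14, 17 and 19, 5397 genes were called. By day, 3720 genes (28.6%) were called at day 9, 3973 (30.5%) at day 14 and 2175 (16.7%) at day 20. The shares higher and lower were 10.8% and 17.8% at day 9, 17.3% and 13.2% at day 14, and 9.54% and 7.16% at day 20. List counts below, over 9 mice or by day, are to be read beside these shares of all genes. Of the 3 days, day 20 was the least settled: 648 were called without mouse 18, 1072 without mouse 19 and 1403 without the mouse block. Day 9 gave 2245 without mouse 13, and day 14 gave 2154 without mouse 15 and 2082 without mouse 16. Counts by day use 3 pairs each. With mitochondrial genes left out of the total, the split at day 20 turned from 1243 higher and 932 lower to 1263 higher and 1461 lower. In what follows a difference is the mean paired difference of log2(TPM + 1), neo-epithelium minus rectum, ± SE over 9 mice. The SE is that of the limma fit after its empirical Bayes step. The fit over 9 mice has no term for a change of the difference between days, so such changes widen its SE. For a change between days, the SE is that of a contrast of 3 mice against 3. The added 1 understates the difference of genes near 0 TPM.

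Basal and suprabasal keratins gave the widest gaps. Krt14, the partner of Krt5 in the basal layer, was at 5129, 7650 and 10925 TPM (lowest, median and highest of 9) in neo-epithelium and at 6.26, 131 and 380.4 TPM in rectum. Every neo-epithelium section exceeded every rectum section, and the difference was 6.35 ± 0.63 (limma, adjusted p = 1.9e-05). Krt5 was at 1456, 2349 and 2963 TPM against 0.029, 39.1 and 151 TPM (6.57 ± 0.78). Krt13 was at 3722, 8075 and 9928 TPM against 1.28, 72.8 and 209.6 TPM, with a difference of 7.68 ± 0.57 (limma, adjusted p = 2e-06). Krt4, the partner of Krt13, had the largest difference of all genes that met the naming rule, at 8.11 ± 0.46, from 403, 1015 and 3590 TPM against 0, 2.39 and 18.3 TPM. For both pairs of keratins the rectal values of mouse 19 were the lowest. The keratins of wounded and fast-dividing squamous cells, Krt6a (7.09), Krt6b (6.72), Krt16 (5.32) and Krt17 (5.57), were also higher in 9 of 9 mice. Krt6a and Krt6b are close copies, as are Krt14, Krt16 and Krt17 in part, so reads may be shared between them.

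All 9 members of the suprabasal and wound keratin list were called higher, with a median difference of 5.57 against 0.00 over all genes. One of them, Krt78, had under 5 rectum sections at 1 TPM and thus passed the filter on low values (at least 1 TPM in at least 9 of the 18 sections) through neo-epithelium. The basal list of 12, of which Trp63 and Col17a1 likewise passed the filter through neo-epithelium, was mixed, with 7 higher and 2 lower (1 lower without the filter, 1 lower without the mouse block, 4 lower without mice 14, 17 and 19). Col17a1, the hemidesmosomal collagen of squamous basal cells, was at 29.2, 39.9 and 61.8 TPM in neo-epithelium and 0.0285, 0.757 and 7.3 TPM in rectum (4.17 ± 0.28), and Krt15 differed by 6.05 ± 0.30. Hemidesmosome parts that colonic crypts also make differed less. Itga6 was at 118 to 203 TPM (median 147) against 103 to 189.9 TPM (median 151), and its difference of 0.12 ± 0.14 was not called. The laminin chain genes Lama3 (-0.23 ± 0.16) and Lamb3 (-0.34 ± 0.15) were not called either, although both were called lower without mice 14, 17 and 19 (-0.41 and -0.48; limma, adjusted p = 0.0050 and 0.024), and Lamb3 also under TMM scaling, with mitochondrial genes left out and without mouse 19. The integrin gene Itgb4 (-0.47 ± 0.16) was called lower, and that call was lost without the filter, without the mouse block and without mouse 11, 12, 13, 15, 17 or 18 (limma, adjusted p up to 0.089). Tns4, a focal adhesion protein, was lower in 9 of 9 mice (-0.92 ± 0.12).

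Krt7 and the simple keratins took opposite directions. Krt7 was at 899.7, 1137 and 1360 TPM in neo-epithelium, a narrow range, and at 85.3, 169 and 275 TPM in rectum, with no overlap and a difference of 2.72 ± 0.15 (limma, adjusted p = 2.3e-07). Uninjured anus had 237 ± 61.1 TPM (SD, n = 4) and uninjured rectum 78.2 ± 15.4 TPM. Each neo-epithelium section therefore held more Krt7 than the mean of either uninjured tissue. Krt8 and Krt18, the keratin pair of columnar cells, differed by -2.81 ± 0.58 and -2.60 ± 0.32 and were lower in 9 of 9 mice. Krt8 in neo-epithelium ran from 17.5 to 2473 TPM and was lowest in mouse 12 of day 9. Krt19 was nearly level, at 1547, 2750 and 3641 TPM against 2256, 3522 and 3876 TPM, and its small difference of -0.41 ± 0.09 was still negative in 9 of 9 mice. Krt20, the keratin of surface colonocytes, was lower in 9 of 9 mice (-1.98 ± 0.48).

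**Figure D2:**
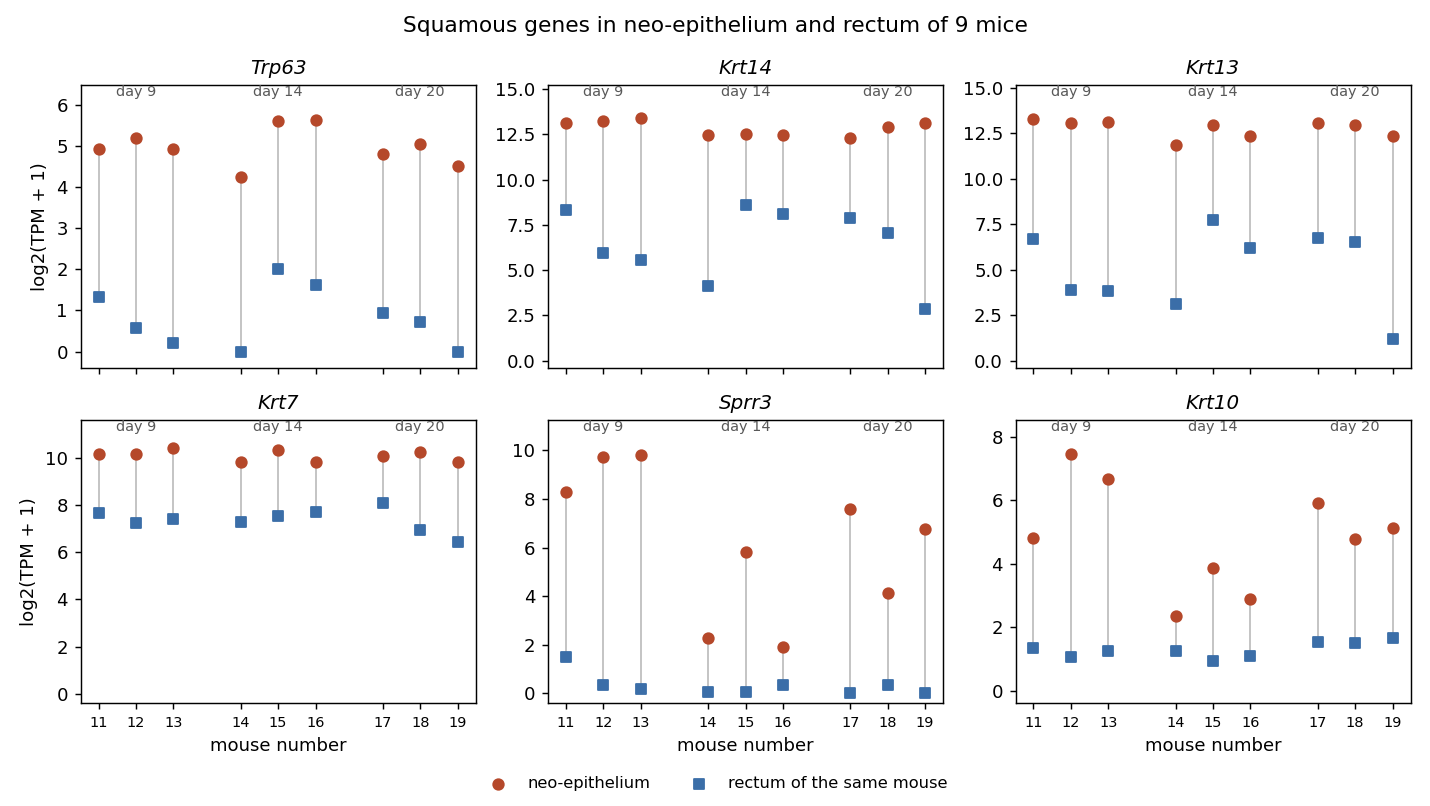
Expression of 6 squamous genes, as log2(TPM + 1), in each mouse (x axis, mouse number, by day), with neo-epithelium as circles and rectum of the same mouse as squares. Trp63, Krt14, Krt13 and Krt7 were higher in neo-epithelium in 9 of 9 mice, while Krt10 in neo-epithelium was lowest in the 3 mice of day 14.

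Trp63 and several other squamous transcription factors were high in neo-epithelium and low in rectum. Trp63 was at 18.1, 29.4 and 49 TPM against 0, 0.654 and 3.06 TPM, with a difference of 4.17 ± 0.14 (limma, adjusted p = 7.4e-09). Rectum of mice 14 and 19 listed it at 0. Uninjured anus held 22.2 ± 4.61 TPM (SD, n = 4). Sox2, a regulator of foregut-type squamous tissue, was at 4.91, 10.1 and 19.9 TPM against 0, 0.222 and 1.22 TPM (3.18 ± 0.12), and Sox15 at 19.3, 23.5 and 43.8 TPM against 0, 0.257 and 1.36 TPM (4.26 ± 0.16). Pitx1, a homeobox factor of the hindlimb and perineal region, was at 22.2, 49.2 and 70.2 TPM against 1.53, 3.31 and 10.1 TPM (3.28 ± 0.22). The grainyhead factors of barrier formation, Grhl1 (3.37 ± 0.11) and Grhl3 (3.28 ± 0.15), and Zfp750 (3.32 ± 0.19), which acts downstream of p63 in keratinocytes, did not overlap between sections either. Pax9, of pharyngeal and oral linings (1.62 ± 0.11), Tfap2a (1.93 ± 0.14) and Barx2 (2.86 ± 0.14) were higher in 9 of 9 mice. None of these differences was called as changing between day 9 and day 20.

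Of the 21 listed factors found in the table, 15 passed the filter on low values. Of these, 7 had under 5 rectum sections at 1 TPM, Trp63, Sox2 and Sox15 among them, and so passed through neo-epithelium. Of the 15, 11 were called higher and 1 lower; without the filter, all 21 could be fitted and 16 were higher and 1 lower. The exception was Klf4, a factor that squamous and colonic surface cells share, at 23.7, 51.8 and 114 TPM in neo-epithelium and 71.8, 135 and 237 TPM in rectum (-1.31 ± 0.13). Klf5, also shared by both epithelia, was at 33 to 71.2 TPM (median 61.4) against 29.8 to 115 TPM (median 59.3) and was not called (-0.27 ± 0.13), although it was called lower under TMM scaling, with mitochondrial genes left out and without mouse 12.

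The intestinal transcription factors moved the other way. Cdx2, the homeobox factor that sets hindgut identity, was at 0, 0.354 and 2.3 TPM in neo-epithelium and 2.66, 7.13 and 11.5 TPM in rectum, with no overlap. The difference was -2.30 ± 0.15 (limma, adjusted p = 8.4e-07), and it was -2.75 at day 9, -2.31 at day 14 and -1.82 at day 20, a change that was not called (0.93 ± 0.26; limma, adjusted p = 0.11). Hnf4a, a nuclear receptor of columnar cells, was at 0.401, 16 and 77.1 TPM against 77, 136 and 183 TPM (-2.99 ± 0.48). Cdx1 (-3.00 ± 0.46), Gata6 (-1.44 ± 0.20) and the goblet cell factors Atoh1 (-1.98 ± 0.25) and Spdef (-1.77 ± 0.24) were lower in 9 of 9 mice. Of 17 factors tested, 15 were called lower and 2 higher, with a median of -1.77; 5 had passed the filter with under 5 neo-epithelium sections at 1 TPM, and without the filter 15 of 19 were lower. The 2 that were higher are not confined to columnar cells: Foxa1 (0.64 ± 0.13) and Prdm1 (1.06 ± 0.21), a factor that also acts in upper squamous layers.

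Posterior Hox genes, which mark position along the gut, were partly lower in neo-epithelium. Of 11 tested, 7 were lower, against 23.4% of all genes, with a median of -0.78; Hoxd12 passed the filter through rectum. Hoxb13, a gene of the distal rectum, was at 5.56, 15.5 and 65.2 TPM against 33.2, 62 and 108 TPM (-1.78 ± 0.23), Hoxd13 differed by -1.22 ± 0.16 and Hoxa13 by -1.05 ± 0.15. Under TMM scaling 8 of the 11 were lower.

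**Figure D3:**
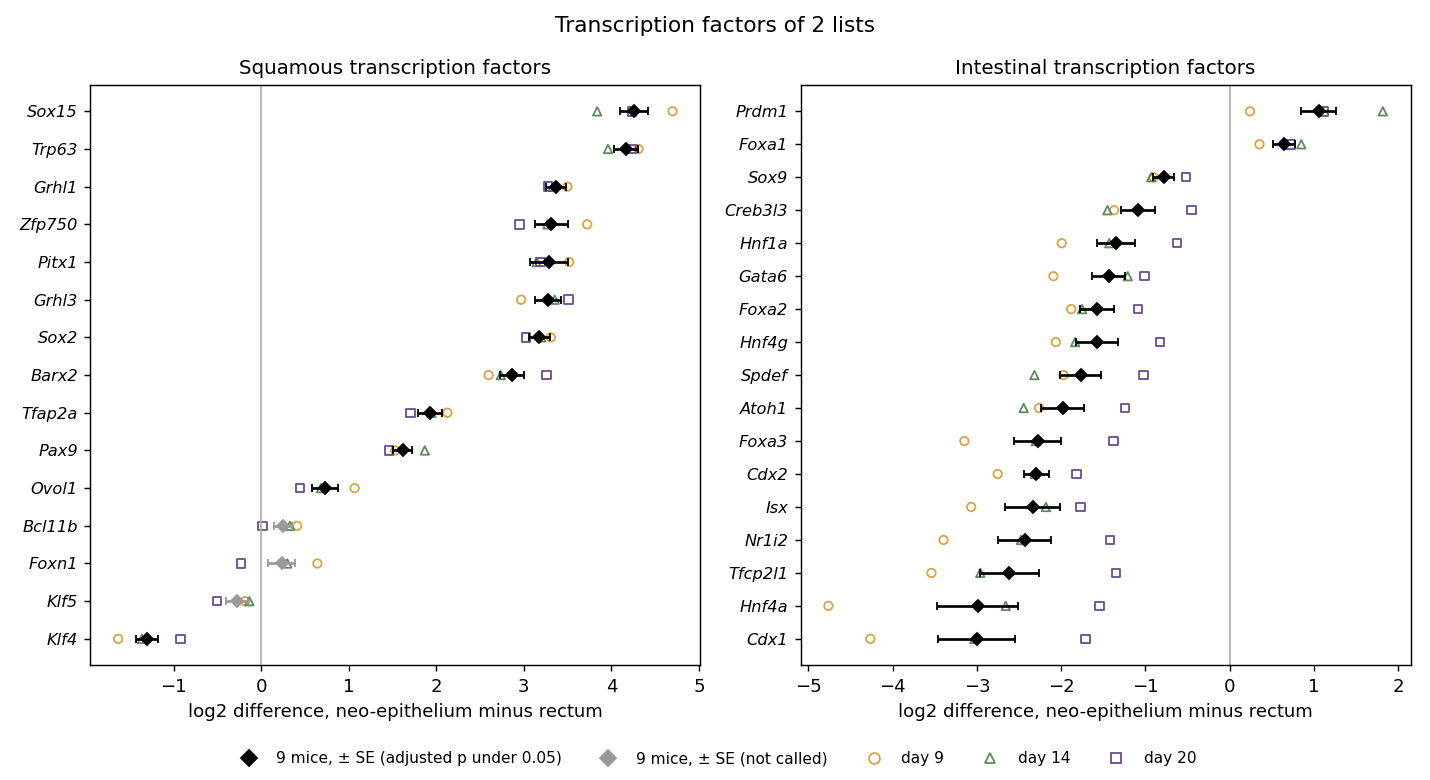
Difference between neo-epithelium and rectum (x axis, log2 of TPM + 1) for each tested squamous factor (left) and intestinal factor (right), with black diamonds for called and grey for uncalled means of 9 mice ± SE and open symbols for the 3 mice of each day. Squamous factors such as Trp63 (4.31, 3.96 and 4.24) stood close together at days 9, 14 and 20, while Hnf4a stood at -4.76, -2.66 and -1.55; neither change from day 9 to day 20 was called.

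Late squamous genes were high in neo-epithelium, and several varied widely between mice. Sprr3, a small proline-rich envelope protein of internal squamous linings, was at 308, 852 and 885 TPM in the 3 mice of day 9, 3.82, 56 and 2.78 TPM at day 14 and 189.6, 16.3 and 106 TPM at day 20. The rectum held 0 to 1.82 TPM (median 0.126). The day 14 mice thus had the least Sprr3 apart from mouse 18, and the difference over 9 mice was 5.94 ± 0.83 (limma, adjusted p = 0.0002). Cnfn, cornifelin, was also lowest in the mice of day 14, at 894, 996 and 708 TPM at day 9, 53.2, 254 and 22.4 TPM at day 14 and 439, 349 and 306 TPM at day 20 (7.00 ± 0.57). Sprr1a was at 1604, 2276 and 1931 TPM at day 9, 288, 548 and 209 TPM at day 14 and 851, 422 and 594 TPM at day 20, against 4.47 to 99.6 TPM (median 28.1) in rectum (4.52 ± 0.34). The change from day 9 to day 20 was not called for Sprr3, Cnfn or Sprr1a. Krtdap was at 49.2, 297 and 745 TPM against 0, 3.09 and 4.92 TPM (6.47 ± 0.41). Genes of the earlier steps of envelope assembly were steadier: Ppl, periplakin, was at 30.9 to 83.9 TPM (median 72.7) in neo-epithelium (4.16 ± 0.16), Scel, sciellin, at 58.5 to 149.7 TPM (median 90) (4.62 ± 0.15) and the cross-linking enzyme Tgm1 at 68.9 to 162 TPM (median 122) (4.39 ± 0.32).

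Ivl, involucrin, was low in neo-epithelium at 3.82, 7.26 and 14 TPM and passed the filter through it alone, since no rectum section reached 1 TPM (2.86 ± 0.14); uninjured anus held 70.3 ± 25.3 TPM (SD, n = 4). Of 25 listed envelope genes, 19 were tested, and 16 were called higher and 2 lower. Ivl and Sprr3 had under 5 rectum sections at 1 TPM, and 1 other gene had under 5 neo-epithelium sections. Without the filter 21 of the 25 were higher and 2 lower. The 2 lower genes are also made by colonic surface cells. Tgm3 was at 8.76, 17.9 and 189 TPM in neo-epithelium against 40, 154 and 525 TPM in rectum (-2.00 ± 0.29). Sprr2a1, one of a set of near-identical gene copies whose split is uncertain, was at 491 to 2197 TPM (median 1140) against 1333 to 3190 TPM (median 2716) (-1.02 ± 0.27).

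Genes of dry, hair-bearing skin were lower in each neo-epithelium section than the mean of uninjured anus, a difference that was not tested. Lor, loricrin, the main envelope protein of epidermis, was at 0.233, 3.27 and 33.3 TPM in neo-epithelium, against 890.1 ± 217 TPM (SD, n = 4) in uninjured anus. Flg, filaggrin, was at 0.348, 9.92 and 76.7 TPM against 526 ± 230.3 TPM in uninjured anus. Krt2, an epidermal keratin, was listed at 0 or at most 0.0455 TPM in neo-epithelium. Krt1 was at 0.299, 11.7 and 60.7 TPM against 1209 ± 401 TPM in uninjured anus. Its partner Krt10 was at 27.3, 176 and 101 TPM at day 9, 4.13, 13.5 and 6.45 TPM at day 14 and 58.9, 26.8 and 34 TPM at day 20, against 0.922 to 2.15 TPM (median 1.4) in rectum (3.59 ± 0.48). Only 3 of the 14 listed epidermal genes passed the filter, 2 of them called higher, and without the filter 6 of 14 were higher. Of the genes of hair follicles and sebaceous glands (12 listed) and of melanocytes (5), other cells that perianal skin holds, none reached the filter, and their summed TPM was at most 7.09 and 1.6 in neo-epithelium.

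Serine proteases of the squamous surface and their inhibitors were high in neo-epithelium. Spink5, the inhibitor that holds the skin kallikreins in check, was at 69.5, 96.6 and 157 TPM against 0.0693, 0.681 and 3.19 TPM, a difference of 6.00 ± 0.14 (limma, adjusted p = 1e-09). The membrane-anchored proteases Tmprss11d (6.06 ± 0.30) and Tmprss11a (5.82 ± 0.27) did not overlap between sections. Serpinb5, maspin, was at 250.2, 346 and 415 TPM against 88.9, 125 and 157 TPM (1.43 ± 0.07), with a similar gap in every mouse. The kallikreins were not alike. Klk10 was at 1.5, 17.8 and 167 TPM against 0, 0.228 and 1.96 TPM (4.17 ± 0.58), whereas Klk5, a main kallikrein of epidermis, was listed at 0 in all 9 neo-epithelium sections and stood at 40.3 TPM on average in uninjured anus. Of the 21 listed genes 12 were tested, 7 of them, Spink5 and Klk10 included, with under 5 rectum sections at 1 TPM. These 7 thus passed the filter through neo-epithelium. Of the 12, 11 were higher, and without the filter 16 of 21 were. Slpi, a mucosal antiprotease of both linings, was at 118 to 673 TPM (median 288) against 123 to 1661 TPM (median 792); it was not called (-1.28 ± 0.49), although it was called lower in 7 alternative settings, among them without mouse 14, 17 or 19. Enzymes of barrier lipids were higher as well, among them the ceramide synthase Cers3 (2.54 ± 0.11) and Sptlc3, which starts sphingolipid synthesis (2.69 ± 0.16), while the ceramidase Acer1 was lower (-1.61 ± 0.26). Of 7 barrier lipid genes tested, 5 were higher and 1 lower, against 21.8% and 23.4% of all genes. The filter admitted 3 of the 7 through neo-epithelium, Sptlc3 among them, and Acer1 through rectum; without the filter 9 of 12 were higher.

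Junction genes split by subtype. Desmosomal cadherins of squamous cells were higher and the one of simple epithelia was lower. Dsg3 was at 58.5, 93.6 and 106 TPM against 0.352, 5.23 and 11.7 TPM (4.34 ± 0.30) and Dsc3 differed by 4.19 ± 0.17, while Dsg2 was at 11.5, 47.8 and 129 TPM against 98.6, 164 and 189 TPM (-1.71 ± 0.30). The same split held for the plaque proteins Pkp1 (3.35 ± 0.20) and Pkp2 (-1.58 ± 0.23). Of 10 desmosome genes tested, 8 were higher and 2 lower, against 21.8% and 23.4% of all genes. The 2 lower were Dsg2 and Pkp2, and Dsc3 passed the filter through neo-epithelium. Perp, a desmosomal membrane protein and p63 target, was at 667, 770.2 and 956 TPM against 176, 279.9 and 308 TPM (1.61 ± 0.11). Among the claudins, which seal tight junctions, Cldn1 of squamous barriers was at 37.1, 64.5 and 84.7 TPM against 1.68, 5.2 and 16.6 TPM (3.33 ± 0.22). Cldn2, Cldn3, Cldn7, Cldn8, Cldn15 and Cldn23 were called lower, with differences of -2.41, -1.35, -1.29, -2.08, -1.46 and -0.73. Cldn4 was called higher over 9 mice (1.11 ± 0.36), and it was higher in 6 of 9. That call was lost without mouse 14, 15, 16, 18 or 19 and without the filter (limma, adjusted p up to 0.095).

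Colonic genes were lower in neo-epithelium, and how much lower depended on the mouse. All 24 absorptive colonocyte genes were called lower (median -2.47), as were 14 of 15 goblet cell genes (median -2.59) and 8 of 11 tested enteroendocrine and tuft cell genes. One member of each list passed the filter with under 5 neo-epithelium sections at 1 TPM, and Nts of the last list with under 5 rectum sections. Without mice 14, 17 and 19 the counts were the same, 24, 14 and 8, and the medians were -3.33, -3.31 and -2.51. Zg16, a lectin of the mucus layer, was the gene with the largest fall. Its neo-epithelium values were 36.2, 2.21 and 6.42 TPM in mice 11, 12 and 13 (day 9), 2912, 375 and 559.8 TPM in mice 14, 15 and 16 (day 14) and 2439, 1875 and 3780 TPM in mice 17, 18 and 19 (day 20). The rectum held 3856, 6694 and 13928 TPM, so no section of neo-epithelium reached the lowest rectum section, and uninjured rectum held 5786 ± 807 TPM (SD, n = 4). The difference was -4.69 ± 1.11 over 9 mice (limma, adjusted p = 0.0052). Muc2 was at 0.154, 105 and 488 TPM against 523, 1052 and 1702 TPM (-4.18 ± 0.84), and uninjured rectum and anus held 595 ± 59.7 and 64.1 ± 60.3 TPM. Clca1 (-4.40 ± 0.85), Fcgbp (-4.42 ± 0.76), Tff3 (-4.26 ± 1.01) and Spink4 (-3.73 ± 0.82), all secreted by goblet cells, were lower in 9 of 9 mice. Retnlb, a goblet cell protein induced by inflammation, was not called (-1.61 ± 0.65) unless mouse 14 or 19 was left out, with 0 to 71.8 TPM (median 4.32) in neo-epithelium and 0.224 to 248 TPM (median 12.8) in rectum.

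Among genes of absorption, Aqp8 was at 0.489, 0.0619 and 0.203 TPM in neo-epithelium of day 9, 59.1, 7.56 and 11.1 TPM at day 14 and 165, 188 and 313 TPM at day 20. The matched rectum held 38.9, 105 and 117 TPM at day 9, 693, 179 and 185 TPM at day 14 and 274, 529 and 785 TPM at day 20. Both sections thus had more Aqp8 at day 20 than at day 9, and neo-epithelium was the lower one in each pair (-3.71 ± 0.62). Car1, a carbonic anhydrase, differed by -3.68 ± 0.87, the chloride exchanger Slc26a3 by -3.27 ± 0.53 and Guca2a, guanylin, by -3.58 ± 0.59. Slc16a1, the butyrate carrier, had a gap that was nearly the same at each time, at -1.22, -1.40 and -1.39 for days 9, 14 and 20. The hormone gene Gcg was at 2.79, 0.15 and 2.76 TPM in neo-epithelium and 146, 111 and 139 TPM in rectum at day 9, and at 17.3, 7.23 and 9.45 and 14.6, 34.3 and 20.7 TPM at day 20, where mouse 17 had the higher value in neo-epithelium (-2.92 ± 0.65). Pyy, lower in 8 of 9 mice (-3.38 ± 0.83), and Chga, lower in 9 of 9 (-2.83 ± 0.53), are further hormone and granule genes. Nts, neurotensin, was the exception in this list, at 0.9, 3.78 and 5.61 TPM against 0, 0.691 and 2.09 TPM (1.28 ± 0.19).

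**Figure D4:**
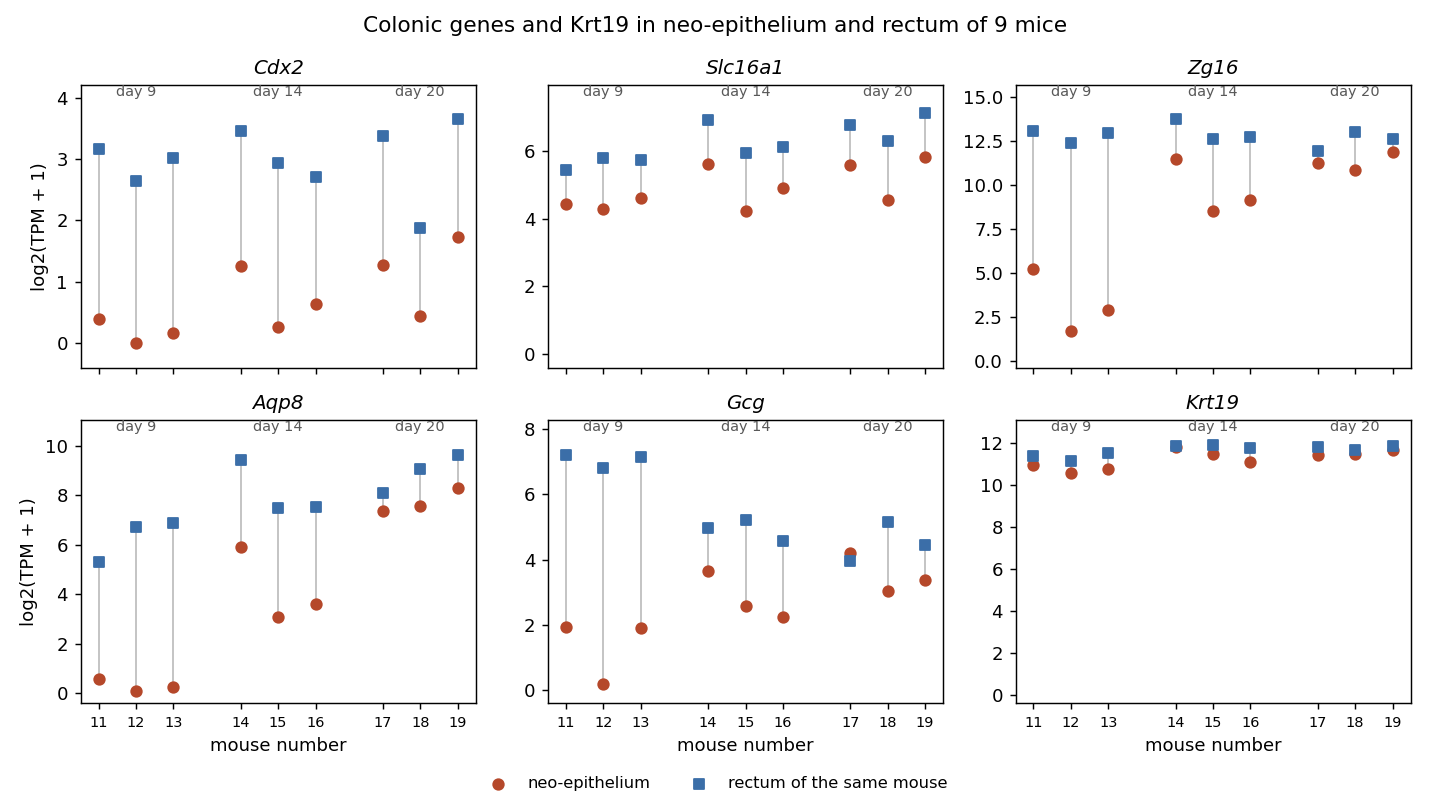
Expression of 5 colonic genes and Krt19, as log2(TPM + 1), in each mouse (x axis, mouse number, by day), with neo-epithelium as circles and rectum as squares. The gap for Zg16, Aqp8 and Gcg was widest in the 3 mice of day 9, that for Slc16a1 was nearly the same at each day, and Krt19 was close to level in both sections.

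The difference between the sections was then compared between days, as an interaction of section and day. From day 9 to day 20, 271 of 13024 genes (2.08%) changed their difference, 241 upwards (1.85%) and 30 downwards (0.230%). Of the 241, 218 had a difference below 0 at day 9, and for 180 the estimate at day 20 was still below 0. For these the estimated gap narrowed. The 180 is a count of signs from 3 pairs and no test, so whether a gap closed cannot be said from it. Choosing genes by a rise from day 9 favours low values at day 9, so the 218 is no separate result either. The absorptive colonocyte list had 10 of 24 members called upwards, the goblet cell list 8 of 15 and the enteroendocrine and tuft cell list 6 of 11 tested. At day 9, 24 colonocyte genes and 14 goblet cell genes were called lower in neo-epithelium (17.8% of all genes were), and at day 20, 7 and 2 (7.16% of all genes). In limma 13 and 7 were lower at day 20 at an unadjusted p under 0.05. The list medians went from -4.41 and -3.68 at day 9 to -1.16 and -1.20 at day 20. The count of 271 genes is sensitive to single mice. It was 47 without mouse 13, 72 without mouse 19, 97 without mouse 12, 122 without mouse 17, 142 without mouse 16, 161 without mouse 18 and 180 without mouse 11, and rose to 492 without mouse 14. Without the filter on low values it was 81 and without the mouse block 176.

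The 8 genes with the largest upward change, by the naming rule, were Zg16, Spink1, Tff3, Saa1, Clca1, Sycn, Dmbt1 and Sval1. Zg16 went from -9.56 at day 9 to -1.20 at day 20, a change of 8.36 ± 0.76 (limma, adjusted p = 0.0041). Spink1, a trypsin inhibitor of mucus-secreting cells, was at 6.36, 0 and 1.16 TPM in neo-epithelium of day 9 and 529, 538 and 862 TPM at day 20, while rectum held 1472, 1246 and 1347 and 1416, 2867 and 883 TPM. Its difference changed by 7.78 ± 0.79. Saa1, an acute phase protein made by colonic epithelium, changed by 6.66 ± 0.80 and Dmbt1, a mucosal scavenger protein, by 6.23 ± 1.17. Sycn and Dmbt1 were each higher in neo-epithelium in 1 of 9 mice. The colonocyte sums of the neo-epithelium sections, given above, rose over the same mice, and their part in these changes was not tested.

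Of the 30 genes whose difference fell, 29 had an estimate above 0 at day 9, where the median over all genes was -0.09. Choosing genes by a fall from day 9 favours high values at day 9, so the 29 is no separate result. The 8 named were Klk13, Aldh3b2, Sncg, Aldh1a1, Ociad2, Sult2b1, Fam25c and Aldh3a1. Aldh3b2, a lipid aldehyde dehydrogenase, was at 53, 51.4 and 44.9 TPM in neo-epithelium and 1.98, 1.14 and 1.58 TPM in rectum at day 9, and at 28.7, 33.4 and 31.3 and 13.5, 10.4 and 13.2 TPM at day 20. Neo-epithelium held less and rectum more at day 20 than at day 9, with no overlap between these days in either section, and the change was -3.05 ± 0.36 (limma, adjusted p = 0.0077). Klk13 in neo-epithelium was at 96.1, 167 and 129 TPM at day 9 and 10.3, 4.66 and 15 TPM at day 20, with at most 0.533 TPM in rectum (-3.28 ± 0.63). Sncg, a synuclein, was at 109, 84.8 and 96.2 TPM in neo-epithelium at day 9 and 9.98, 3.29 and 14 TPM at day 20 (-2.66 ± 0.48). The keratinocyte genes Sult2b1, a cholesterol sulfotransferase (-2.04 ± 0.28), and Fam25c (-1.99 ± 0.41), and Aldh1a1 (-2.38 ± 0.43), Aldh3a1 (-1.82 ± 0.25) and Ociad2 (-2.20 ± 0.32) are the other members. Zg16, Spink1, Saa1, Clca1 and Sval1 among those that rose and Aldh3b2 and Sult2b1 among those that fell were called in every one of 15 alternative settings for this contrast. Tff3 and Sycn lost the call without mouse 13 (limma, adjusted p = 0.056 and 0.058), and Ociad2 without mouse 13 or 19. Dmbt1, Klk13, Sncg, Aldh1a1 and Fam25c lost it without several single mice, with mice 12 and 13 among these for each gene (limma, adjusted p up to 0.31). Each of them also lost it without the filter on low values. Klk13, Sncg and Fam25c lost it with a pseudocount of 0.1, and Dmbt1, Aldh1a1 and Fam25c without the mouse block. Fam25c was called in only 2 of the 15 settings. Aldh3a1 lost it with a pseudocount of 0.1 and without the mouse block.

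From day 9 to day 14, 154 genes changed their difference (1.18%), 120 upwards and 34 downwards, and 95 of these were also called at day 20. That count in limma fell to 0 without mouse 16 (1460 genes at an unadjusted p under 0.05, against 2155 with all mice), 2 without mouse 13, 9 without mouse 12 and 32 without mouse 14, and to 75 under TMM scaling, which moved the median change over all genes from 0.21 to 0.07. No gene is described from it.

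**Figure D5:**
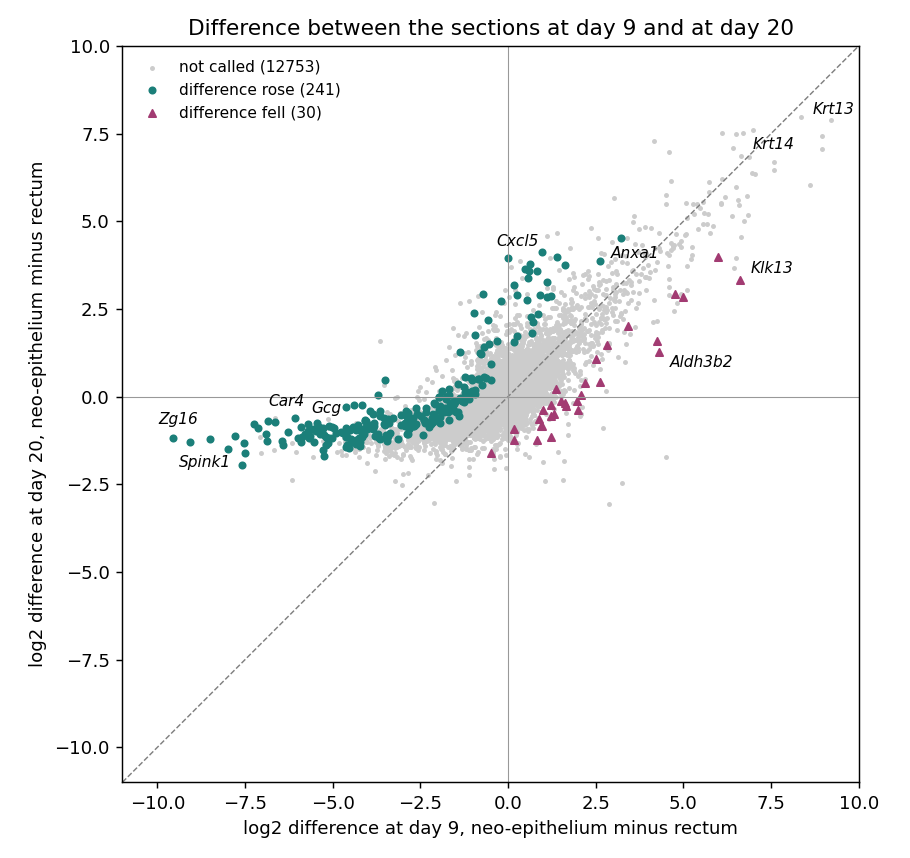
Difference between neo-epithelium and rectum (log2 of TPM + 1) at day 9 (x axis) and day 20 (y axis) for 13024 genes, each a mean of 3 mice. Circles mark the 241 genes whose difference rose and triangles the 30 whose difference fell, and the dashed line marks equal differences; colonic genes such as Zg16 lie far left and closer to 0 on the y axis, while Krt13 and Krt14 lie close to the line.

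Wnt ligands of squamous tissue were higher in neo-epithelium. Wnt7b, a ligand made by squamous basal cells, was at 7.32, 12.3 and 17.7 TPM against 0.0361, 0.312 and 1.12 TPM (3.22 ± 0.11; limma, adjusted p = 7.4e-09), and Wnt4 at 11.7, 20.1 and 29.3 TPM against 0.794, 2.36 and 5.42 TPM (2.60 ± 0.21). Wnt10a (1.98 ± 0.21), the noncanonical ligand Wnt5a (1.58 ± 0.19) and the secreted inhibitor Wif1 (2.31 ± 0.19) did not overlap between sections, and the inhibitor Sfrp1 was higher in 9 of 9 mice (1.31 ± 0.17). Of 17 listed Wnt ligands and inhibitors 9 were tested, and Wnt7b, Wnt10a and Wif1 of these had passed the filter through neo-epithelium; 8 were higher and 1, Rspo3, was lower (-0.48 ± 0.17), a call that was lost without the filter and without mouse 11, 13, 14, 15, 17 or 19 (limma, adjusted p up to 0.17). Without the filter 10 of 17 were higher. Notum, a Wnt-inactivating enzyme, was at 1.06, 3.09 and 5 TPM in neo-epithelium and listed at 0 in 5 of 9 rectum sections (1.73 ± 0.17). The feedback regulators of crypt stem cells, Rnf43 (-1.04 ± 0.12) and Lrig1 (-1.05 ± 0.13), were lower. Lgr5, the receptor that marks those stem cells, was under the filter in both sections, at 0.0119 to 0.554 TPM (median 0.152) and 0.0661 to 0.481 TPM (median 0.16). Of 10 crypt stem cell and Wnt target genes tested, 3 of which, Notum among them, had passed through neo-epithelium, 2 were higher and 3 lower, near the 21.8% and 23.4% of all genes; the ephrin receptors split, with Ephb3 higher (0.97 ± 0.23) and Ephb2 lower (-1.23 ± 0.32).

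In the Notch pathway the ligand genes Jag1, at 4.05, 5.56 and 14.7 TPM against 1.18, 1.47 and 2.66 TPM (1.58 ± 0.15), and Jag2 (1.39 ± 0.13) were higher, as were the receptor Notch2 (1.09 ± 0.24) and the target Hes1 (0.87 ± 0.11); Dll4, a ligand of vessels and crypts, was lower (-0.63 ± 0.12). In all, 6 of 9 were higher and 1 lower, against 21.8% and 23.4% of all genes. Maml2 had passed the filter through neo-epithelium and Dll4 through rectum. Among EGF family genes the ligands Hbegf (1.58 ± 0.20) and Tgfa (0.64 ± 0.17) were higher and the receptors Erbb2 (-0.63 ± 0.13) and Erbb3 (-0.77 ± 0.14) lower, and Egfr was not called (0.01 ± 0.25). Of 11 tested, 5 were higher and 4 lower, against 21.8% and 23.4% of all genes. Without mice 14, 17 and 19 the counts were 2 and 3, near those shares.

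Cell cycle genes were close to level. Mki67, a marker of dividing cells, was at 15.7, 22.4 and 29.1 TPM in neo-epithelium and 11.9, 19.6 and 51.3 TPM in rectum, with full overlap, and its difference of -0.16 ± 0.17 was not called. Of 15 genes 3 were called higher, about the same share as the 21.8% of all genes: Ccnb2 (0.48 ± 0.13), Ccnb1 (0.71 ± 0.21) and Cdk1 (0.52 ± 0.16). Cdk1 lost its call without mouse 19, and Ccnb1 without mice 14, 17 and 19 (limma, adjusted p = 0.054 and 0.050).

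Genes known from injured epithelium were partly higher in neo-epithelium. Anxa1, an annexin with anti-inflammatory action, was at 6798, 12477 and 20226 TPM in neo-epithelium and 505, 1183 and 2243 TPM in rectum (3.42 ± 0.19), against 5302 ± 1736 TPM in uninjured anus. Ly6a, which rises in regenerating colon, was high in both sections, at 1309 to 5629 TPM (median 3542) and 666 to 7018 TPM (median 3695), and was not called (-0.14 ± 0.23). Clu was not called either (-0.69 ± 0.35), and F3, tissue factor, was lower (-1.45 ± 0.19). Il33, an alarmin of squamous and stromal cells, differed by 1.19 at day 9, 4.17 at day 14 and 3.95 at day 20 (3.10 ± 0.53 over 9 mice), and its change from day 9 to day 20 was not called. Of 11 genes tested 5 were higher and 1 lower (against 21.8% and 23.4% of all genes). The median of the list was 0.36, and it was -0.10 at day 9, where 3 were higher and 2 lower, and -0.39 without mice 14, 17 and 19.

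Host defence genes went in both directions. Defb1, a constitutive beta-defensin, was at 10.5, 33.4 and 49.2 TPM against 0, 0.404 and 1.18 TPM (4.46 ± 0.18), and S100a7a, psoriasin, at 8.7, 28.6 and 54.8 TPM against 0, 0.822 and 1.09 TPM (3.97 ± 0.27). Pigr, the carrier of secretory IgA, was lower at 3.81, 229.9 and 615 TPM against 256, 872 and 1107 TPM (-2.86 ± 0.63). Duox2 (-1.98 ± 0.62) and Duoxa2 (-1.44 ± 0.53), the hydrogen peroxide system of the gut surface, were lower. The call of Duox2 was lost without mouse 11 or 13 and that of Duoxa2 without mouse 11, 12, 13, 15, 16, 17 or 18 (limma, adjusted p up to 0.055 and 0.10). S100a8 and S100a9, calprotectin, were not called except without mouse 12, at 195 to 9204 TPM (median 1608) and 258 to 8481 TPM (median 2116) in neo-epithelium and 8.26 to 6975 TPM (median 658) and 4.59 to 6123 TPM (median 750.2) in rectum. Of 11 epithelial antimicrobial genes tested, 2 were higher and 4 lower, against 21.8% and 23.4% of all genes, and the 2 higher, Defb1 and S100a7a, had passed the filter through neo-epithelium. By day, 2 were higher and 4 lower at day 9, and 5 higher and 0 lower in limma at day 20 (1 lower at an unadjusted p under 0.05). The 4 that were lower at day 9, Saa1, Pigr, Duox2 and Duoxa2, were the 4 whose difference was called as rising from day 9 to day 20. At day 20 S100a8 (3.04), S100a9 (3.69) and Lcn2, lipocalin 2 (2.42), were called higher, and their changes from day 9 were not called.

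Among cytokines, Cxcl5, a neutrophil attractant, was at 406, 602 and 584 TPM in neo-epithelium and 166, 285 and 162 TPM in rectum at day 9, at 411, 950.4 and 1339 and 15.1, 133 and 147 TPM at day 14, and at 512, 1192 and 206 and 50.2, 52.3 and 10.5 TPM at day 20. Neo-epithelium exceeded its rectum in 9 of 9 mice (2.98 ± 0.39; limma, adjusted p = 0.00013). The IL-36 family genes Il1f8 (2.05 ± 0.15), Il1f6 (1.54 ± 0.32) and Il1f9 (2.17 ± 0.57) were higher, and Il1f9 lost its call without mice 14, 17 and 19 (adjusted p = 0.12 in limma). Il18 (-1.85 ± 0.18) and the mucosal chemokines Ccl20 (-1.44 ± 0.21) and Ccl28 (-2.46 ± 0.36) were lower, and Il1b was not called, at 45.5 to 1655 TPM (median 326) against 1.68 to 1603 TPM (median 326). Of the 14 tested, 3 of which, Il1f6 and Il1f8 among them, had passed the filter through neo-epithelium, 6 were higher and 3 lower (against 21.8% and 23.4% of all genes), with a median of 0.86 that went to 0.00 without mice 14, 17 and 19.

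Markers of other cells moved with some of these differences. The summed TPM of the 12 neutrophil genes was highest at day 9 in both sections, and ran from 889 to 20017 TPM in neo-epithelium and from 521 to 15142 TPM in rectum. At day 9 most of that sum came from S100a8 and S100a9, which squamous cells make as well. Of the 12 genes, Retnlg (1.73 ± 0.55) and Mmp8 (0.94 ± 0.35) were called higher, and neither was without mice 14, 17 and 19, or without mouse 14 or 18 alone (limma, adjusted p up to 0.18 and 0.23 over all settings). By day, 0 of the 12 were called higher in limma at day 9 (0 at an unadjusted p under 0.05; median -0.04) and 5 at day 20 (median 2.19; 9.54% of all genes): Csf3r (3.03), Retnlg (3.37), Il1r2 (2.85), S100a8 and S100a9. In limma 0 of the 12 were called as changing from day 9 to day 20, 7 being upwards at an unadjusted p under 0.05. Ly6g of the same list was lower in 9 of 9 mice (-2.60 ± 0.58), and it stood at 639 ± 64.8 TPM (SD, n = 4) in uninjured rectum. The whole list summed to 606 to 737 TPM there, so most of that sum was Ly6g. Low sums of this list therefore cannot be read as neutrophil content. Macrophage and monocyte genes (9) summed to 277 to 589 TPM in neo-epithelium and 158 to 931 TPM in rectum, and T cell genes (7) to 8.88 to 35.4 and 4.68 to 43.4 TPM. In limma 0 of 9 macrophage genes (2 at an unadjusted p under 0.05) and 0 of 5 T cell genes tested (0 at an unadjusted p under 0.05) were called over 9 mice. By day, 1 macrophage gene was called lower at day 9, 3 higher at day 14 and 1 higher at day 20. For T cells, 1 gene was called lower at day 9.

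B and plasma cell genes were lower in 7 of 7 cases (against 23.4% of all genes), with a median of -1.83. Ms4a1 had passed the filter through rectum. Without the mouse block 5 were lower, and by day 7 were at day 9, 3 at day 14 and 1 at day 20, with medians of -2.39, -1.66 and -1.53. Their sum ran from 13.8 to 1723 TPM in neo-epithelium and from 91.6 to 3554 TPM in rectum, was highest in mouse 17 of day 20 in both sections, and was higher in neo-epithelium only in mice 14 and 19. Cd79a, a part of the B cell receptor, was at 0.368, 2.73 and 6.17 TPM against 1.75, 27.6 and 92.5 TPM (-2.58 ± 0.44), and Ms4a1, the CD20 gene, differed by -2.13 ± 0.29. Igha lost its call in 9 alternative settings, among them without mouse 11, 12, 13, 15, 16, 17 or 18 (limma, adjusted p up to 0.11).

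Smooth muscle genes were lower in 6 of 6 cases, against 23.4% of all genes, for example Des (-1.75 ± 0.31) and Myh11 (-1.53 ± 0.34). By day, 5 were lower at day 9, 5 at day 14 and, in limma, 0 at day 20, with 0 at an unadjusted p under 0.05. Of all genes, 17.8%, 13.2% and 7.16% were lower at these days. The sums were 252 to 669.9 TPM in neo-epithelium and 252 to 1452 TPM in rectum. Fibroblast genes were higher in 6 of 8 (against 21.8% of all genes), with 6 at day 9, 2 at day 14 and, in limma, 0 at day 20 (1 at an unadjusted p under 0.05; medians 0.98, 0.63 and 0.14), for example Dcn, decorin (1.04 ± 0.16), with sums of 527 to 3136 and 329.7 to 1376 TPM. Col1a1 (0.74 ± 0.24) lost its call without mouse 11, 12, 13 or 14 (limma, adjusted p up to 0.060). Of 6 endothelial genes 3 were higher (2 without mice 14, 17 and 19), against 21.8% of all genes, with sums of 40.2 to 162 and 26.9 to 179.7 TPM. Of the 10 skeletal muscle genes, which the anal sphincter would bring, 3 were tested and 1, Acta1, was lower (-2.06 ± 0.49); the sums were 8.55 to 16.1 TPM in neo-epithelium and 10.9 to 170.2 TPM in rectum. Of 7 genes of enteric glia and neurons 1 was tested and not called in limma (1 at an unadjusted p under 0.05), with at most 3.68 and 8.99 TPM. The part of these cells in the differences was not tested.

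The remaining genes with the largest rise are not keratins or envelope proteins. Psca, a small surface protein of squamous and transitional linings, was at 1498, 2439 and 3402 TPM against 0.517, 20.8 and 80.7 TPM (7.72 ± 0.61). Ppbp, a platelet-type chemokine, was among the most abundant transcripts of neo-epithelium at 2968, 6043 and 10256 TPM, against 0.853, 128 and 435 TPM in rectum (7.00 ± 0.80). Ltf, the iron-binding lactoferrin, was at 742, 1873 and 7366 TPM against 1.09, 25.4 and 171 TPM (6.77 ± 0.51), and Calcb, a CGRP peptide gene, at 925, 1374 and 2085 TPM against 0.0557, 27.2 and 94.3 TPM (6.65 ± 0.66). In each of these 4 genes the lowest neo-epithelium section exceeded the highest rectum section. Calml3 (6.86 ± 0.37), a calmodulin of keratinocytes, Dapl1 (6.40 ± 0.28) and the galectin gene Lgals7 (6.37 ± 0.42) complete the 15. The 15 with the largest fall include the membrane mucin gene Muc3 (-3.83 ± 0.80), Klk1 (-3.93 ± 0.67), Wfdc18 (-3.86 ± 0.63), Sval1 (-3.99 ± 0.82), Spink1 (-4.46 ± 1.05) and Saa1 (-3.77 ± 0.92). The naming rule itself requires the same sign in 9 of 9 mice. Saa1 has near copies, so its split is uncertain. In total, 946 genes met every condition of the naming rule for a rise and 1341 for a fall.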

How the data were processed

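RNA-seq libraries of 66 mouse colon, rectum, anus and neo-epithelium samples were deposited as one transcript table, of which 18 samples enter the tests. Reads of 75 bp were processed by the authors with CASAVA and kallisto against mm10, per the submitters' processing notes, whose versions are not given in the sources used here. The table's values are a relative signal that the authors deposited as TPM, per the labels. Repeated transcript rows (1318 of 89516 with values) were dropped, since without them every library had the same total, and the other 88198 transcripts were summed over 30452 genes.

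Genes with at least 1 TPM in at least 9 of the 18 samples were fitted as log2(TPM + 1) in limma 3.58.1 (R 4.3.3; empirical Bayes with a trend, two-sided), with the mouse as a block and Benjamini-Hochberg adjustment over 13024 genes. Days and their interaction with section came from one fit over all 18 samples. The fit was tested on simulated data. The labels give both sections of a pair the same mouse, and residuals of a pair correlated at 0.0578 to 0.528 (mean 0.275). Members and gene lists were chosen with earlier results of these data known; a few list members are not reported here and are left out of the lists' counts. Named genes are members of the lists, the 15 largest rises and 15 largest falls (called, mean of at least 8 TPM, the same sign in 9 of 9 mice, no pseudogene, predicted or receptor segment symbol), and the 8 largest changes each way from day 9 to day 20 whose paired differences did not overlap between these days. Alternatives were a pseudocount of 0.1, other filters, TMM factors, a total without mitochondrial genes, no block, a 2-fold minimum, each mouse left out, and, chosen after seeing the data, mice 14, 17 and 19 left out together. Counts and read depth are not analysed here, so no counting error could be given, and p-values measure the spread between mice.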

Additional observations from a re-analysis of the deposited data

Results flagged for a closer look

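The difference between neo-epithelium and rectum was tested for a change between days, and it changed for 271 genes from day 9 to day 20 and for 154 from day 9 to day 14. The values below are changes from day 9 to day 20 of the mean paired difference of log2(TPM + 1), all with an adjusted p under 0.05 in limma. A rise means that the gap narrowed or turned for genes that were below rectum at day 9.

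For part of the colonic genes the difference rose. It did for 10 of 24 absorptive colonocyte genes, 8 of 15 goblet cell genes and 6 of 11 enteroendocrine and tuft cell genes tested. Of all genes, 1.85% were called upwards. The enteroendocrine and tuft cell sum of rectum ran from 1091 to 1472 TPM at day 9 and from 317 to 518 TPM at day 20. In neo-epithelium that sum ran from 15.6 to 45.1 and from 142 to 330 TPM. The rectum sums at these days were 22309 to 26710 and 48728 to 50871 TPM for colonocyte genes. They were 10231 to 14422 and 12049 to 21719 TPM for goblet cell genes. Of goblet cell genes, Zg16 changed by 8.36, Tff3 by 7.29, Clca1 by 6.50, Muc2 by 5.90, Fcgbp by 5.63 and Spink4 by 5.62. Of surface colonocyte genes, Car4 changed by 5.92, Aqp8 by 4.82, Slc26a3 by 3.85 and Krt20 by 3.36. The hormone and granule genes Pyy, Gcg and Chga changed by 6.14, 4.73 and 4.09. Secreted proteins followed, with Spink1 at 7.78, Saa1 at 6.66, Sycn at 6.45, Dmbt1 at 6.23, Sval1 at 6.21 and Klk1 at 5.03. Junction genes of columnar cells changed less, with Cldn8 at 2.27, Dsg2 at 2.11, Cldn3 at 1.76, Cldn7 at 1.48 and Cldn23 at 1.17, and Sprr2a1 changed by 1.97. Among host defence genes, Pigr changed by 4.61, Duox2 by 4.34, Duoxa2 by 3.76, Il1f9 by 3.94, Cxcl5 by 2.59 and Il1f6 by 2.21, and Anxa1 by 1.23.

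Of the 30 genes that fell, 29 were higher in neo-epithelium than in rectum at day 9, when 1407 genes were called higher. Klk13 changed by -3.28 and Klk11 by -2.16. The aldehyde dehydrogenase genes Aldh3b2, Aldh1a1 and Aldh3a1 changed by -3.05, -2.38 and -1.82. Sncg changed by -2.66, Ociad2 by -2.20, Sult2b1 by -2.04, Fam25c by -1.99, Acaa2 by -1.45 and Wnt10a by -1.36. Of these 43 named genes, 13 kept their call in each of 15 alternative settings and none changed sign.

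Among the uninjured samples given as background, 1 of 4 mice lay far from the other 3 (Dixon's gap ratio above the 95% value for 4 samples) for 5 of the tissue and gene pairs looked at. In anus these were Krt14 with a lowest value of 1208 TPM, Muc2 with a highest value of 154 TPM and Zg16 with a highest value of 502.5 TPM. In rectum they were Krtdap with a highest value of 82.7 TPM and Lor with a highest value of 5.85 TPM. Chance marks about 1 in 20 such groups. The number of pairs looked at is not given here, so the 5 cannot be set against that rate.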

How the results depend on the processing

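No named gene turned from a call in one direction to a call in the other in any setting. Of 186 named genes, 163 had the same call in each of 16 settings in which they were tested. The 5 TPM minimum tested 157. With a 2-fold minimum the counts were 1848 over 9 mice, 2125 at day 9, 2092 at day 14 and 1113 at day 20. Without the replicate block, day 20 gave 1403, the change from day 9 to day 20 gave 176 and that to day 14 gave 44 (5588 over 9 mice). With only its own 3 mice, day 20 gave 1075. Without the filter on low values, the change from day 9 gave 81 at day 20 and 35 at day 14. With the filter and TMM factors, the change to day 14 gave 75. Leaving out single mice gave 5229 to 5959 over 9 mice, 2245 to 3949 at day 9, 2082 to 4210 at day 14, 648 to 2546 at day 20, 47 to 492 for the change to day 20 and 0 to 172 for that to day 14. The lowest of these were without mouse 13 (day 9), 16 (day 14) and 18 (day 20), and day 14 gave 2154 without mouse 15. For the changes between days the causes of these moves were not tested. Without read counts, low TPM values carry an unknown counting error.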

Other observations

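Genes of mitochondrial fat oxidation, the main fuel use of colonocytes, were mostly lower in neo-epithelium. Of 15 listed, 13 were tested; 10 were called lower, against 23.4% of all genes, with a median difference of -0.48 against 0.00 over all genes. Without mice 14, 17 and 19, 9 were called lower. By day, 6 were called lower and 1 higher at day 9, 8 lower at day 14 and 8 lower at day 20. Pparg, a nuclear receptor of differentiated colonocytes, was at 4.51, 9.69 and 22.8 TPM in neo-epithelium and 23.4, 31.2 and 55 TPM in rectum (-1.56 ± 0.15; limma, adjusted p = 1.2e-05), with no overlap. Cpt2, which releases fatty acids for oxidation inside mitochondria, was at 16.6, 20.6 and 41.9 TPM against 33.5, 45.1 and 83.6 TPM (-0.99 ± 0.11). The gap of Cpt2 was -1.01 at day 9, -0.98 at day 14 and -0.97 at day 20, nearly the same at each time. The part of colonocyte content in these differences was not tested. Acads, the short-chain acyl-CoA dehydrogenase, differed by -1.03 ± 0.13 and was lower in 9 of 9 mice. Ppargc1a, a coactivator of mitochondrial genes, was lower in 8 of 9 (-1.53 ± 0.25). Acaa2, the last enzyme of the oxidation cycle, did not share the pattern: it was higher in neo-epithelium at day 9 (1.21) and not called over 9 mice (0.35 ± 0.20).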
